A study of Mus musculus with 31 samples.

Results

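Hippocampal maturation in mice that carry a Glud1 transgene is described here from 6 arrays of a series of 31. The members are all arrays of Glud1 Tg mice at 2 of the 5 ages sampled, 3 at 10 days and 3 at 4.5 months, taken by the genotype and age in their labels. Each array held total RNA of the hippocampus of male C57BL/6 mice. The Tg groups hold as many arrays as the methods give animals, but the wt group at 10 days holds 1 array more, so whether its 4 arrays are of separate animals is not settled, and a "mouse" below stands for an array. The Tg mice express additional Glud1, which encodes the mitochondrial enzyme glutamate dehydrogenase, in neurons only, and the wild type (wt) mice are of the same strain. The arrays used beside these 6 were those of 7 wt mice, 4 at 10 days and 3 at 4.5 months, and of 9 older Tg mice, 3 each at 9, 14.5 and 20 months.

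At 10 days the rodent hippocampus is still being built. Granule neurons are added to the dentate gyrus, axons are largely unmyelinated, synapses are forming, and the subunits of many receptors and channels are about to be exchanged for adult ones. By 4.5 months a mouse is a young adult with myelinated tracts and a settled circuit, in which division continues at a low rate among the progenitors of the dentate gyrus and of oligodendrocytes.

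Values are log2 signals of Affymetrix probe sets, and a change is the mean of the 3 Tg mice at 4.5 months minus that of the 3 at 10 days, given with its standard error (SE), so that 1 unit is a 2-fold difference. P values are from limma, with Benjamini-Hochberg adjustment over all 26877 probe sets tested, and "rose" and "fell" are used of an adjusted p under 0.05. Where a gene had several probe sets, that of the highest mean stands for it. The whole tissue was homogenized, so fewer cells of a type and less RNA per cell cannot be told apart. Signals of different probe sets are not compared with each other, and a log2 signal under 6.84, the median of all probe sets, may lie near the background of its array.

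Close to every second probe set changed in Tg mice from 10 days to 4.5 months. Of those tested 6595 rose, which is 24.5%, and 6417 fell, which is 23.9%. Changes of at least 2-fold numbered 2077 upward and 1712 downward, and those of at least 16-fold 21 and 18. The arrays of the 2 ages did not overlap in 14737 of the 26877 probe sets, with 7345 higher and 7392 lower at 4.5 months. A lack of overlap was therefore common. Counted by genes, 3299 of 12844 rose (25.7%), 3530 fell (27.5%) and 6015 did not pass, with a median change of -0.03. These shares and this median are the background for every gene list below. Without quantile normalization the median over probe sets was 0.13 in place of 0.02, so a rise or fall below about 0.1 has no settled direction.

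The wt mice changed in much the same way. Of the 13012 probe sets that changed in Tg mice, 10925 (84.0%) changed in the same direction in wt mice, where 14318 changed in all. Across genes the Tg and wt changes had a Pearson correlation of 0.88, a description over genes that are not independent. The difference between the 2 genotypes in their change was called for none of the probe sets (0.0%, limma), although 1906 had an unadjusted p under 0.05, and when each mouse was left out in turn the count ran from 0 to 10. The median SE of that difference was 0.24, so that for most genes a modest difference could not have been seen with 3 or 4 mice in a group.

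**Figure D1:**
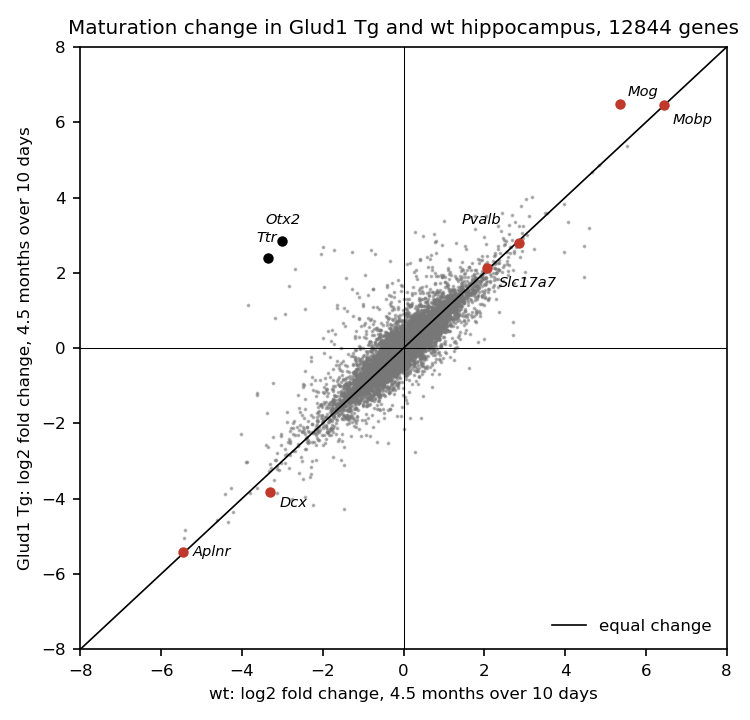
Log2 fold change from 10 days to 4.5 months of each of 12844 genes in wt mice (horizontal axis, 3 against 4) and in Glud1 Tg mice (vertical axis, 3 against 3), 1 point for each gene. Red points are named genes that changed in Tg mice and black points the choroid plexus genes Ttr and Otx2, which did not pass. Most genes lie along the line of equal change, and the choroid plexus genes lie off it at the upper left.

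In 1 control measure the 4.5-month arrays differed from every other age. Their Gapdh 3'/5' log2 ratio ran from -0.05 to 0.02, against -0.43 to -0.19 in Tg mice at 10 days and -0.46 to -0.32 at the 3 later ages, and the wt arrays at 4.5 months, at -0.08 to 0.00044, were like the Tg arrays of that age. Both genotypes share this difference, so the agreement of their changes cannot tell age from whatever sets these arrays apart. Other control measures did not set the 4.5-month arrays apart from every other age, but some separated them from the 10-day arrays. The median linear signal of an array was 94.2 to 101.3 in Tg mice at 10 days and 115.0 to 132.2 at 4.5 months. In wt mice it was 91.4 to 101.9 and 115.4 to 132.8. It overlapped with that of Tg mice at 9 months, at 130.8 to 140.0, and at 20 months, at 113.2 to 122.0. The beta-actin ratio overlapped between 10 days and 4.5 months and was highest at 9 months, at 0.71 to 0.76. A spiked-in bacterial control, bioB, separated the 2 ages too, at 9.67 to 10.03 in Tg mice against 9.17 to 9.56 at 10 days. It overlapped with 9 months, at 9.70 to 9.81, and with 20 months, at 9.40 to 9.69. The part of these differences between arrays in the changes from 10 days to 4.5 months was not tested. In 1857 probe sets, or 6.91%, the 3 Tg arrays at 4.5 months lay above or below all 12 other Tg arrays, and in 7167 (26.7%) those at 10 days lay apart from all 12 later ones. Of the probe sets that rose, 2999 were below all later ages at 10 days, and of those that fell 3668 were above them. The older Tg groups were compared with the same 10-day arrays, so their changes are given only side by side, to tell a change that was still there at 9 to 20 months from one seen at 4.5 months. Within groups the lowest correlation between arrays was 0.90 at 10 days and 0.94 at 4.5 months.

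Glud1 itself fell slightly. Its log2 signal was 12.76, 12.83 and 12.55 in the 3 mice at 10 days and 12.35, 12.15 and 12.16 at 4.5 months, a change of -0.50 ± 0.07 (adjusted p = 7.75e-07). The groups did not overlap, and the wt change was -0.39. The transgene does not carry the end of the transcript that these probe sets read, so the values are of the endogenous gene and do not check the genotype. Of 24 measured genes that make, carry or break down glutamate and GABA, 9 rose and 6 fell, with a median of 0.05. Among the enzymes the aspartate aminotransferase Got1 rose by 0.67 ± 0.08, glutamine synthetase Glul of astrocytes by 0.39 ± 0.08 and the GABA-synthesizing enzyme Gad1 by 0.98 ± 0.11. The second GABA-synthesizing enzyme, Gad2, was at 0.14 ± 0.12 and did not pass.

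The vesicular glutamate transporters, which fill synaptic vesicles, moved in opposite directions. Slc17a7, the transporter of mature hippocampal pyramidal and granule neurons, was at 11.36, 11.38 and 10.78 at 10 days and 13.40, 13.22 and 13.31 at 4.5 months, a rise of 2.14 ± 0.10 (adjusted p = 1.78e-16). Slc17a6, which predominates in immature cortical neurons and in the thalamus, went from 11.22, 11.08 and 11.23 to 9.57, 9.67 and 8.61 and fell by 1.90 ± 0.31 (adjusted p = 2.12e-05). In neither did the groups overlap. The fall of Slc17a6 was still seen at 20 months, at -1.23, while Slc17a7, at 2.03 at 14.5 months, was at only 0.24 at 20 months. Of the uptake carriers, the main astrocyte carrier Slc1a2 rose by 0.48 ± 0.05, but its 5 probe sets ranged from -0.95 to 2.78. Slc1a3, the carrier of radial glia and immature astrocytes, was at -0.21 ± 0.11 and did not pass.

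Of 5 measured subunits of the NMDA receptor, a glutamate-gated channel permeable to calcium, 4 rose and 1 fell (median 1.07, or 0.30 with the median over all probe sets of each gene). Grin2a, the subunit that joins synaptic receptors as they mature, stood at 6.73, 6.72 and 6.71 at 10 days and at 8.78, 8.80 and 8.80 at 4.5 months. The mice of an age lay close together and far from those of the other age, and it rose by 2.07 ± 0.30 (adjusted p = 1.42e-06). Grin2b, the subunit of young synapses, rose too, by 1.07 ± 0.13 from 10.32, 10.55 and 9.95 to 11.40, 11.23 and 11.40, with its other probe sets down to -0.27. Grin2c rose by 1.57 ± 0.46, a call that was lost with the 13 arrays of both ages alone in the fit (adjusted p = 0.0676). Grin2d rose by 0.41 ± 0.17 (adjusted p = 0.0408), and it did not pass without any 1 of 5 of the 6 mice, with the replicate number as a block or with no filter on low signals (adjusted p from 0.0527 to 0.136). Grin3a, which limits calcium entry at juvenile synapses, was at 9.97, 10.22 and 10.38 and then 9.12, 9.12 and 9.28, and fell by 1.02 ± 0.17 (adjusted p = 1.56e-05). At 20 months the differences from 10 days were 0.64 for Grin2a and -1.82 for Grin3a, and -0.00023 for Grin2b. At 9 months Grin2b was at -0.04, and its arrays at 4.5 months lay above all other Tg arrays.

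Of 17 subunits and partners of the AMPA receptor, which carries fast excitation, 9 rose and 2 fell (median 0.60, or 0.28 with the median over all probe sets of each gene). Gria1 rose by 0.83 ± 0.08 and Gria2, which makes the channel impermeable to calcium, by 0.84 ± 0.05, from 12.95, 12.90 and 12.94 to 13.71, 13.76 and 13.84. Gria4 was at -0.03 ± 0.10 and did not pass. The partner with the largest rise was Prrt1, a membrane protein bound to the receptor, from 10.60, 10.32 and 10.26 to 13.12, 12.67 and 12.95, a rise of 2.52 ± 0.12 (adjusted p = 2.64e-16). Later values of Prrt1 varied, at 0.40 above 10 days at 9 months, 2.04 at 14.5 months and 0.11 at 20 months. Shisa7 rose by 1.14 ± 0.13 and Cacng3 by 0.89 ± 0.16. In 6 of the 17 genes the 4.5-month arrays were above those of every other Tg age, against 991 of all 26877 probe sets. The median over the list was -0.05 for the mean of the 3 later ages in place of 4.5 months.

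Among 13 kainate and metabotropic glutamate receptor genes 6 fell, 1 rose and 6 did not pass. Their median of -0.38 was -0.23 without the second and -0.22 without the third mouse at 10 days, and -0.19 over all probe sets of each gene. Grik1, a kainate subunit of interneurons, was 8.50, 9.30 and 9.44 at 10 days and 7.32, 7.74 and 7.64 at 4.5 months, and fell by 1.51 ± 0.25. The auxiliary subunit Neto2 fell by 0.93 ± 0.10 and the metabotropic receptor Grm3 by 0.58 ± 0.12, and both were lower at 20 months by a similar amount, at -1.07 and -0.62. Grik5, which needs another kainate subunit to form a channel, rose by 0.83 ± 0.11 but was at -0.35 at 20 months.

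Subunits of the inhibitory receptors moved in both directions. Of 12 measured genes of GABA-A and glycine receptors 4 rose, 3 fell and 5 did not pass (median 0.09). Glra2, the glycine receptor subunit of fetal and newborn brain, was at 9.97, 10.40 and 10.06 at 10 days and fell to 7.75, 7.48 and 7.83, a change of -2.45 ± 0.21 (adjusted p = 5.42e-11) against -2.27 at 20 months. Gabra4 rose by 0.87 ± 0.07, from 10.33, 10.45 and 10.44 to 11.27, 11.25 and 11.30, and Gabrd by 0.76 ± 0.16. These subunits form the receptors outside synapses of granule cells. Gabrb1 rose by 0.73 ± 0.09, and Gabra3, an early subunit, fell by 0.43 ± 0.18 with an adjusted p of 0.0483, close to the threshold. Gabra2 stood at 0.15 ± 0.11 and did not pass.

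Slc12a5 and Slc12a2 set the chloride gradient on which GABA acts. The chloride exporter Slc12a5 rose by 0.74 ± 0.06, from 12.98, 12.82 and 12.92 to 13.56, 13.77 and 13.61. The importer Slc12a2, which neurons lose and oligodendrocytes and choroid plexus retain, rose as well, by 1.09 ± 0.21, from 10.16, 10.18 and 10.28 to 10.98, 11.77 and 11.14. The rises were still there at 20 months, at 0.61 and 1.17. The highest value of Slc12a2 was that of the 4.5-month mouse with the highest choroid plexus signal, and the part of that tissue in its rise was not tested.

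**Figure D2:**
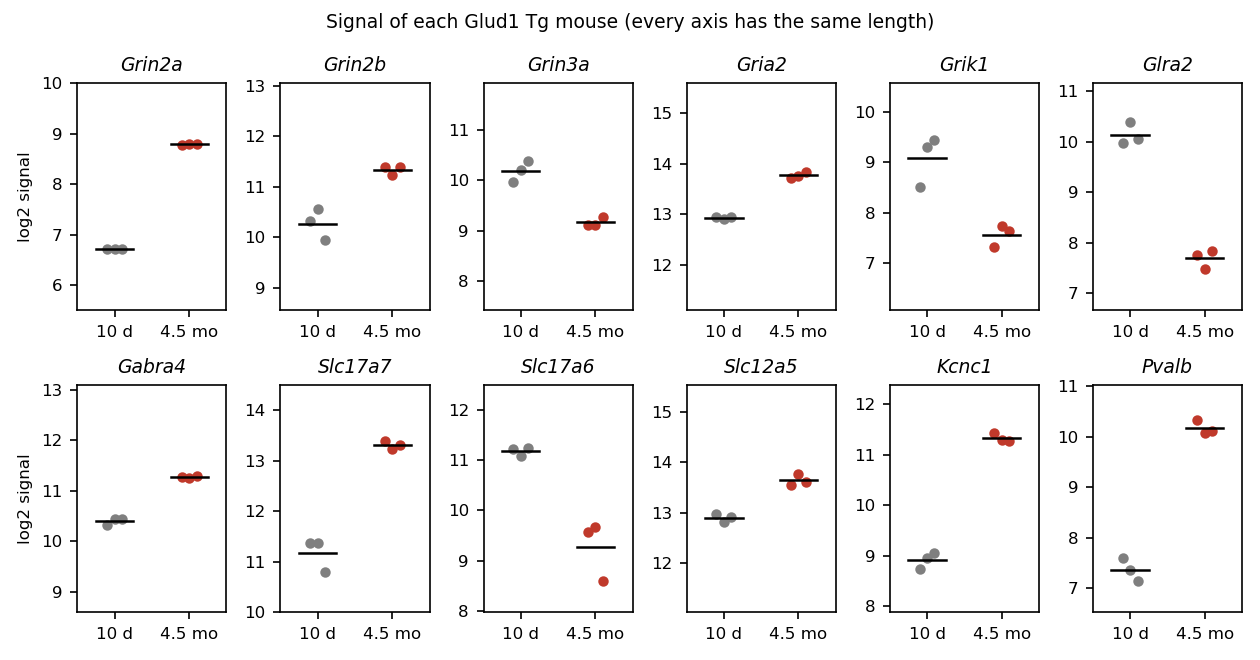
Log2 signal of 12 genes of transmission and excitability in each Glud1 Tg mouse at 10 days (grey, 3 mice) and 4.5 months (red, 3 mice), with a line at each mean and the same length of scale in every panel. In all 12 genes the groups do not overlap, with Grin3a, Grik1, Glra2 and Slc17a6 lower at 4.5 months and the other 8 higher. A lack of overlap was also seen in 14737 of the 26877 probe sets tested.

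Calcium-dependent kinases and calcium-binding proteins of neurons rose in 14 of 25 genes and fell in 6 (median 0.39). The synaptic kinase Camk2a rose by 1.48 ± 0.15 and Nrgn, which holds calmodulin in dendrites, by 1.54 ± 0.12. The nuclear kinase Camk4 fell, from 12.87, 12.96 and 12.93 to 11.17, 11.26 and 11.12 and by 1.73 ± 0.08 (adjusted p = 1.53e-16), and the difference was -1.90 at 20 months. A different probe set of Camk4 stood at 0.44. Among the sensors of the hippocalcin family Hpca rose by 1.21 ± 0.09 and Hpcal4 by 1.05 ± 0.06. Pvalb, the buffer of fast-spiking interneurons, went from 7.60, 7.37 and 7.14 to 10.32, 10.07 and 10.12, a rise of 2.80 ± 0.16, whereas Calb2, the buffer of young granule cells and of other interneurons, fell by 1.27 ± 0.29.

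Most potassium channel genes that changed rose. Of 35 potassium and HCN channel genes 21 rose and 5 fell (median 0.36). The fast-spiking channel subunit Kcnc1 went from 8.74, 8.97 and 9.06 to 11.44, 11.30 and 11.27, a rise of 2.42 ± 0.12 (adjusted p = 3.78e-16), and Kcnc2 rose by 1.34 ± 0.09. The axonal channel Kcna1 rose by 1.35 ± 0.08 and its partner Kcnab2 by 1.84 ± 0.10, and at 20 months they were at 1.47 and 1.65. Hcn2, a channel opened by hyperpolarization, rose by 1.01 ± 0.21. Kcnj10, the potassium channel of astrocytes, rose by 0.57 ± 0.16. Kcnj9 rose by 0.86 ± 0.33, but its groups overlapped, because the third mouse at 10 days, at 9.72, lay above every mouse at 4.5 months.

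Genes of the axon initial segment and the node of Ranvier, where action potentials start and are renewed, rose in 8 of 17 cases and fell in 1 (median 0.28). Cntnap1, which anchors myelin loops beside the node, was at 5.65, 5.57 and 5.34 at 10 days and 8.64, 8.98 and 8.64 at 4.5 months, a rise of 3.23 ± 0.24 from a signal below the median of the arrays, and of 2.32 with 50 added to each signal. The adult nodal channel Scn8a rose by 1.21 ± 0.11, the auxiliary subunits Scn2b by 2.23 ± 0.12 and Scn4b by 1.73 ± 0.36, and the scaffold Sptbn4 by 1.35 ± 0.10. Scn3a, the channel of the embryonic brain, was at -0.16 ± 0.12 and did not pass.

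All 21 measured genes of myelin and oligodendrocytes rose, 20 of them at least 2-fold, with a median of 2.72. Signals of Mobp, a protein of compact myelin, were 5.75, 7.06 and 7.29 at 10 days and 12.97, 13.38 and 13.09 at 4.5 months, a rise of 6.45 ± 0.44 (adjusted p = 3.91e-11). Mal rose by 5.38 ± 0.19, the cytoskeletal protein Ermn by 4.67 ± 0.20 and Mag, which faces the axon, by 3.60 ± 0.18. Mbp, already at 11.92, 12.82 and 12.43 at 10 days, rose by 2.54 ± 0.20. Mog, a late protein of the myelin surface, was at 0.95, 5.0 and 2.67 at 10 days, too low and too scattered for an exact fold, and its rise of 6.49 ± 0.85 was 3.51 with 50 added to each signal. Over the list the median difference from 10 days was 2.47 at 9 months, 2.85 at 14.5 months and 2.997 at 20 months. In all 21 genes the 10-day arrays lay below every later Tg array, against 3136 of all 26877 probe sets.

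Genes of oligodendrocyte precursors mostly fell. Of 13 precursor genes 7 fell and 3 rose (median -0.47). Pdgfra, the growth factor receptor that marks these cells, went from 11.24, 11.52 and 11.39 to 10.45, 10.08 and 10.21 and fell by 1.14 ± 0.13. Gpr17, a receptor of the committed precursor, fell by 1.01 ± 0.17 and Lhfpl3 by 1.50 ± 0.16. Myrf, the transcription factor that switches on myelin genes, rose by 1.79 ± 0.19. Cspg4 fell by 0.69 ± 0.19 in Tg mice and was at 0.06 in wt mice, a difference that did not pass its test (limma, adjusted p = 0.522).

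Astrocyte genes rose in 13 of 21 cases and fell in 3 (median 0.44). S100b went from 9.63, 9.99 and 9.75 to 11.77, 11.60 and 11.69, a rise of 1.90 ± 0.09 (adjusted p = 2.64e-16), and the gap junction gene Gjb6 rose by 1.35 ± 0.13. The phospholipid enzyme Etnppl had the largest rise, 3.83 ± 0.28, from 6.67, 5.71 and 4.81 to 9.44, 9.86 and 9.40. Gfap rose by 1.34 ± 0.10 and was 0.32 above 10 days at 20 months, while the lowest of its 3 probe sets gave 0.23 from 10 days to 4.5 months. The water channel Aqp4 fell by 0.71 ± 0.09.

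Genes of radial glia and immature neurons fell in 33 of 44 cases and rose in 4 (median -0.93), and among the 30 genes of immature neurons alone 24 fell and 3 rose (median -1.24). The microtubule protein Dcx was at 12.75, 12.60 and 13.03 at 10 days and 9.08, 8.99 and 8.84 at 4.5 months, a fall of 3.82 ± 0.14 (adjusted p = 1.05e-18). Dpysl3, of growing axons, fell by 3.21 ± 0.10, Marcksl1, of the growth cone membrane, by 2.49 ± 0.10, Gap43 by 2.31 ± 0.13 and the transcription factor Sox11 by 1.58 ± 0.23. Fabp7, the fatty acid carrier of radial glia, went from 13.97, 14.29 and 14.13 to 11.32, 10.76 and 11.12 and fell by 3.07 ± 0.14. Vim fell by 0.90 ± 0.22 but was at -0.15 at 20 months, and Nes, an intermediate filament of neural stem cells, was at -0.44 ± 0.37 and did not pass. At 20 months Dcx stood at -3.99 and Fabp7 at -3.02.

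**Figure D3:**
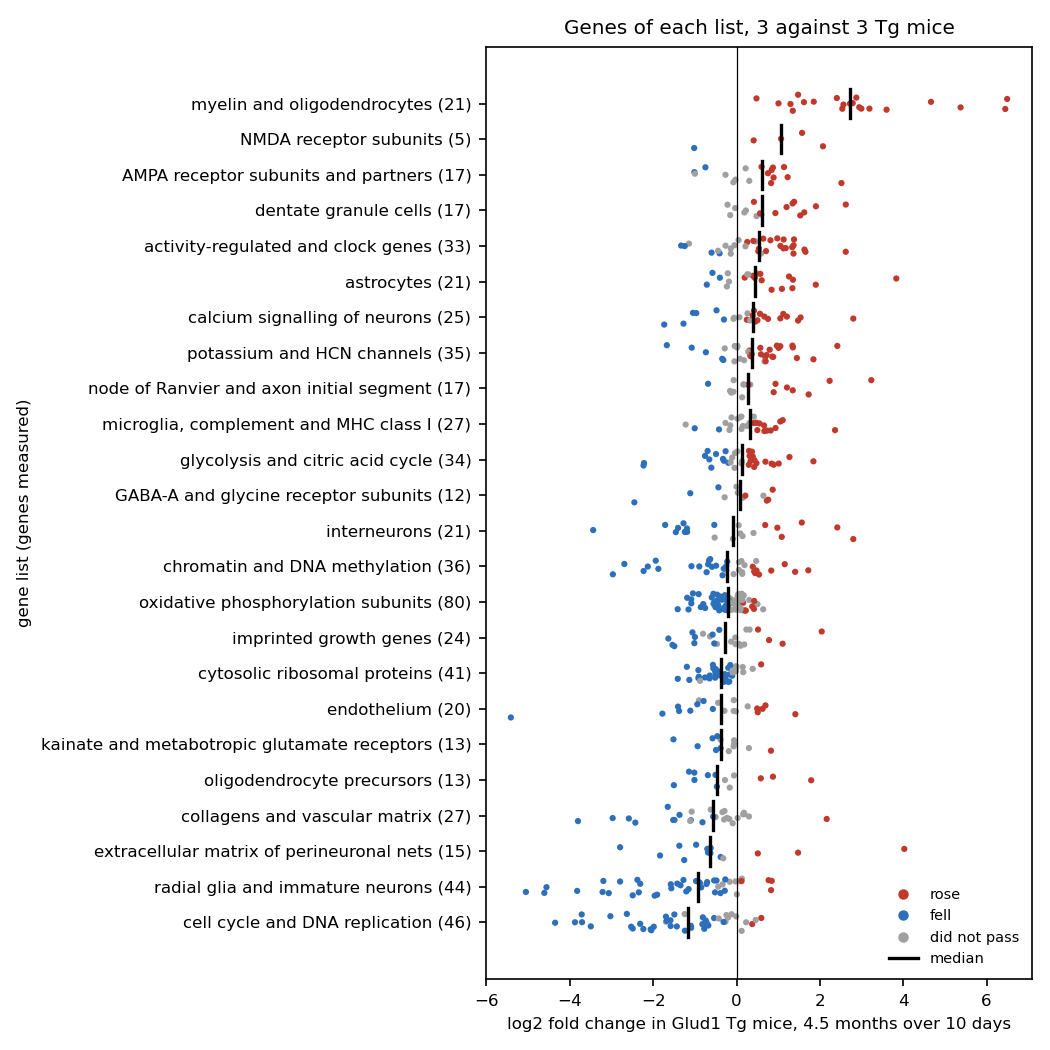
Change in Glud1 Tg mice from 10 days to 4.5 months of every measured gene of 24 gene lists, 1 point for each gene, with its log2 fold change on the horizontal axis, red for a rise, blue for a fall, grey for a gene that did not pass, and a bar at the median of the list. Every point of the myelin list is red and right of 0, and the points of immature neurons and of the cell cycle lie mostly left of it.

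Cell division genes fell in 33 of 46 cases, 23 of them at least 2-fold, and rose in 2 (median -1.17). Rrm2, which supplies the building blocks of DNA, was at 9.46, 9.35 and 9.54 at 10 days and 5.98, 5.78 and 6.10 at 4.5 months, a fall of 3.50 ± 0.35 (adjusted p = 1.58e-09). The replication helicase subunits Mcm5 and Mcm7 fell by 2.24 ± 0.21 and 1.09 ± 0.10, Cdk4, which starts the cycle, by 1.49 ± 0.11 and the topoisomerase Top2a by 2.53 ± 0.64. Mki67 fell by 3.88 ± 1.05, with a change of -2.18 when 50 was added to each signal, its 4.5-month values of 4.88, 5.51 and 2.50 being scattered and far below the median of the arrays. Ccnd2, the cyclin of neural progenitors, fell by 0.74 ± 0.09, whereas Ccnd1 rose by 0.38 ± 0.13 with overlapping groups.

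Genes of late cell division share short promoter motifs, the CCAAT box and the cell cycle homology region with its core TTTGAA, and their starts are shown here because these genes fell together. RefSeq promoters of build GRCm38.p6 were used, from 250 bases before to 50 after a start, with those of a chromosome left out. Among them 37 of the 46 measured cell cycle genes had an entry. On either strand 27 of these held CCAAT (73.0%) and 15 TTTGAA (40.5%), against 42.6% and 13.7% of 10377 genes tested. Of the 22 that fell at least 2-fold, 15 held CCAAT (68.2%) and 10 TTTGAA (45.5%), shares near those of all 37. A match of these letters is a description of the window and does not show that a factor binds. The 4 below, given 5' to 3' on the gene's strand from 110 bases before to 50 after the start, had the largest falls among genes that held both motifs in this window, and capitals mark CCAAT or ATTGG and TTTGAA or TTCAAA.
Cdk1: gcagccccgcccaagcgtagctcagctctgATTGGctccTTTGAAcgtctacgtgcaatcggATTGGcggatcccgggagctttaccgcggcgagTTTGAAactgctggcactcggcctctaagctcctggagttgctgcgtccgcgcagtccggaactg
Kif23: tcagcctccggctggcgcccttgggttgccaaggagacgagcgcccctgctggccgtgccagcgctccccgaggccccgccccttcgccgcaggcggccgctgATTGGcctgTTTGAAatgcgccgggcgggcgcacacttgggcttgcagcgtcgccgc
Ube2c: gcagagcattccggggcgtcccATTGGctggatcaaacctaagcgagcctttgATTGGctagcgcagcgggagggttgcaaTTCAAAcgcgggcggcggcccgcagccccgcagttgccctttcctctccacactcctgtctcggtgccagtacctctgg
Top2a: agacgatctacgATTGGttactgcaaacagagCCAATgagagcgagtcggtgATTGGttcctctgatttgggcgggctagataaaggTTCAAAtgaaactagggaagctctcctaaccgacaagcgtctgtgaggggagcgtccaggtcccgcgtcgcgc
Cdk1, the kinase that drives mitosis, fell by 3.72, Kif23, a motor of cell separation, by 3.71 and Ube2c, which marks mitotic proteins for breakdown, by 3.03 on the log2 scale. The windows of Cdk1 at chr10:69352863-69353022 and of Top2a at chr11:99024140-99024299 lie on the minus strand, as does that of Kif23 at chr9:61946750-61946909, and that of Ube2c at chr2:164769819-164769978 on the plus strand.

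Of 36 regulators of DNA methylation and chromatin 18 fell, 9 rose and 9 did not pass (median -0.23, or -0.0071 over all probe sets of each gene). Among the 11 of DNA methylation 4 fell and 3 rose (median 0.14), and among the 25 of chromatin 14 fell and 6 rose (median -0.25). Dnmt3a, which adds new methyl groups, went from 11.51, 11.71 and 11.32 to 9.60, 9.57 and 9.74 and fell by 1.88 ± 0.13 (adjusted p = 6.95e-13), and Dnmt1, which copies them at replication, fell by 0.34 ± 0.12 with overlapping groups. Tet1, which oxidizes them, fell by 2.69 ± 0.18. Ezh2 and Ezh1, the alternative methyltransferases of the Polycomb complex in dividing and in resting cells, moved in opposite directions. Ezh2 was at 8.90, 9.22 and 8.89 and then 6.99, 7.40 and 6.79, a fall of 1.94 ± 0.19, and Ezh1 was at 8.60, 8.37 and 8.51 and then 10.19, 10.20 and 10.25, a rise of 1.72 ± 0.09. Both changes held at 20 months, at -1.93 and 1.92. The chromatin proteins Hmgb2 and Hmgb3 fell by 2.23 ± 0.35 and 2.13 ± 0.12, Hdac2 fell by 0.66 ± 0.07, and Hdac11 rose by 1.41 ± 0.08.

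Of 28 RNA-binding regulators of splicing and messenger RNA, 8 rose, 5 fell and 15 did not pass (median 0.07). The muscleblind proteins, which set adult splicing, rose, Mbnl2 by 0.92 ± 0.07 and Mbnl1 by 0.58 ± 0.08, and at 20 months they were at 1.37 and 0.78. Ptbp2, which holds splicing in its juvenile form, fell by 0.37 ± 0.07, with a second probe set at 0.51, and was at -0.07 at 20 months. Nova2 rose by 0.99 ± 0.13 at 4.5 months and was at -0.33 at 20 months. In 7 of the 28 genes the 4.5-month arrays lay apart from all other Tg ages, against 7.13% of all genes.

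Imprinted genes are transcribed from the copy of a single parent, and many regulate growth. In a list of such genes 9 of the 24 measured fell and 4 rose (median -0.27). The list is a selection and leaves out Mkrn3, an imprinted gene described below. Inpp5f went from 13.18, 13.19 and 13.06 to 11.63, 11.71 and 11.61, a fall of 1.49 ± 0.07 (adjusted p = 6.13e-17), and its probe sets ranged from -2.29 to -0.17. Nnat fell by 1.0 ± 0.14. Rasgrf1, an exchange factor of Ras in mature neurons, rose by 2.04 ± 0.07, from 11.24, 11.51 and 11.48 to 13.41, 13.53 and 13.42. Dlk1 rose by 1.10 ± 0.31, Peg3 was at 0.06 ± 0.11 and Mest at -0.03 ± 0.22. Igf2 was at 10.88, 11.73 and 11.50 and 9.85, 11.77 and 10.58, overlapping groups with a change of -0.64 ± 0.63 that did not pass. Its highest value at 4.5 months was that of the mouse with the most choroid plexus signal. At 10 days its highest value was that of the Tg mouse with the least such signal.

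Among 22 genes of insulin-like and neurotrophin signalling 9 rose and 2 fell (median 0.33). The ligand Igf1 was at 10.54, 10.17 and 10.12 at 10 days and 8.28, 7.94 and 8.0 at 4.5 months, a fall of 2.20 ± 0.20 (adjusted p = 1.88e-10), and its receptor Igf1r rose by 1.13 ± 0.14. The adaptor Irs1 fell by 1.08 ± 0.11. Bdnf was at 0.01 ± 0.13 and did not pass, although a second probe set of it stood at 0.80. Fgf1, a ligand without a secretion signal, rose by 0.92 ± 0.15, and Fgfr1 rose by 0.68 ± 0.11 at 4.5 months but was at -0.32 at 20 months.

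Cytoskeletal genes moved in both directions. Of 23 genes 8 rose and 11 fell (median -0.16), and among the 11 tubulins 7 fell and 2 rose. The neuronal tubulin Tubb3 went from 13.30, 13.30 and 13.13 to 10.90, 10.47 and 10.83 and fell by 2.51 ± 0.12 (adjusted p = 1.67e-16). Tubb2b fell by 2.15 ± 0.15, Tubb5 by 1.21 ± 0.05 and Tuba1a by 0.94 ± 0.05. Tubb4a, an isotype of oligodendrocytes and mature neurons, rose by 1.32 ± 0.07 at 4.5 months, stood at 1.13 at 14.5 months and at -0.0036 at 20 months. Map1a of adult dendrites rose by 1.45 ± 0.08 and Map1b of growing axons fell by 0.87 ± 0.18. Of the neurofilaments the heavy chain Nefh rose by 0.99 ± 0.17, the medium chain Nefm fell by 0.54 ± 0.08 and the light chain Nefl was at 0.17 ± 0.07.

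Perineuronal nets, the lattice around mature neurons, are made of hyaluronan, lecticans and link proteins. Of 15 such matrix genes 11 fell and 3 rose (median -0.63). Among the lecticans Vcan fell by 1.26 ± 0.16, Ncan by 0.63 ± 0.19, Acan by 0.62 ± 0.24 with overlapping groups, and Bcan by 0.38 ± 0.08. The link proteins went opposite ways. Hapln1 was at 10.27, 10.33 and 10.33 and fell to 8.28, 8.53 and 8.62, by 1.84 ± 0.28, and Hapln4 was at 5.32, 6.93 and 6.06 and rose to 10.05, 10.21 and 10.13, by 4.02 ± 0.24 or by 3.26 with 50 added to each signal. Tnc, a glycoprotein of the embryonic matrix, fell by 2.79 ± 0.21.

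Collagens and basement membrane genes fell in 11 of 27 cases and rose in 1 (median -0.56). Col4a1, a collagen of the vessel wall, went from 11.25, 11.42 and 11.55 to 9.88, 9.71 and 9.68 and fell by 1.65 ± 0.11. Col3a1 of meninges and fibroblasts fell by 3.80 ± 1.01 and Col1a1 by 2.58 ± 0.88. The summed signal of 6 fibroblast and meningeal markers ran from 4303 to 7500 at 10 days and from 2703 to 3985 at 4.5 months. The markers did not move together, since 3 fell and 1 rose, Ogn by 2.16. The part of retained meninges in the falls of collagens was not tested. In the 20 endothelial genes 8 fell and 5 rose (median -0.37). Aplnr, the apelin receptor of sprouting vessels, was at 11.04, 10.92 and 11.05 at 10 days and 5.41, 5.62 and 5.73 at 4.5 months, a fall of 5.41 ± 0.61, with a change of -4.42 when 50 was added to each signal. The receptor Kdr fell by 1.40 ± 0.21 and the junction protein Cldn5 by 1.78 ± 0.12, while the transporter Slco1a4 of the adult barrier rose by 1.41 ± 0.14. Flt1 rose by 0.69 ± 0.19, with probe sets from -0.47 to 1.31.

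Microglial, complement and MHC class I genes rose in 12 of 27 cases and fell in 2 (median 0.31). The protease Ctss went from 10.64, 10.76 and 10.68 to 11.91, 11.52 and 11.81, a rise of 1.05 ± 0.08 (adjusted p = 2.05e-12). C1qa, which tags synapses and debris, rose by 0.82 ± 0.09, the MHC genes H2-K1 by 1.11 ± 0.13 and B2m by 0.73 ± 0.12, and the receptors Csf1r and P2ry12 by 0.55 ± 0.06 and 0.50 ± 0.08. The fractalkine receptor Cx3cr1, which marks the cells as such, was at 0.15 ± 0.11 and Cd68, of lysosomes, at -0.27 ± 0.16, and neither passed. Of 6 markers of microglia 4 rose and 1 fell, Aif1 by 1.00 (limma, adjusted p = 0.00134).

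Of 18 genes induced by neuronal activity 7 rose, 4 fell and 7 did not pass (median 0.25). Arc, which is transported to active synapses, was at 8.39, 7.53 and 7.63 at 10 days and 11.41, 10.005 and 9.998 at 4.5 months, a rise of 2.62 ± 0.48 (adjusted p = 8.25e-05). Egr1 rose by 1.63 ± 0.13 and Nr4a1 by 1.37 ± 0.26. The first mouse at 4.5 months had the highest value of Arc, Egr1, Nr4a1 and Fos, and Fos, at 0.46 ± 0.51 with overlapping groups, did not pass. The falls, named because there were few, were those of Ier2 (-1.33 ± 0.18), Sik1 (-1.24 ± 0.44), Btg2 (-0.60 ± 0.17) and Nr4a3 (-0.41 ± 0.14). Of the 15 genes of the circadian clock 12 rose and none fell (median 0.98). The clock output factors rose together, Tef from 11.11, 11.02 and 11.02 to 12.37, 12.39 and 12.40 and by 1.33 ± 0.06, Hlf by 1.38 ± 0.13 and Dbp by 0.52 ± 0.13, as did the repressor Nr1d2 by 1.13 ± 0.09. The time of day at which the mice were killed is not given in the sources used here.

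Isozymes of glucose metabolism moved in opposite directions. Among 34 genes of glycolysis, the citric acid cycle and lactate transport 16 rose and 11 fell (median 0.13). Ldha fell by 0.76 ± 0.08, from 13.13, 13.09 and 13.09 to 12.41, 12.22 and 12.41, and Ldhb, the subunit of oxidative tissue, rose by 0.89 ± 0.07, from 12.22, 12.08 and 11.92 to 12.89, 12.99 and 13.01. The hexokinases also parted, Hk2 falling by 0.69 ± 0.20 and Hk1 rising by 0.69 ± 0.05, although Hk1 was only 0.08 above 10 days at 9 months. Pfkl rose by 1.84 ± 0.08, Eno2, the enolase of neurons, by 1.27 ± 0.06 and Pkm by 1.01 ± 0.06. Slc16a1, which carries lactate and ketone bodies into the suckling brain, went from 12.50, 12.58 and 12.48 to 10.34, 10.36 and 10.20 and fell by 2.22 ± 0.13 (adjusted p = 1.32e-14), with -1.33 at 20 months.

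Subunits of the respiratory chain, of ribosomes and of the proteasome mostly fell, by small amounts. Of 80 measured genes of oxidative phosphorylation 42 fell and 6 rose (median -0.21), of 41 cytosolic ribosomal proteins 29 fell and 1 rose (-0.38), of 76 mitochondrial ribosomal proteins 47 fell and 4 rose (-0.38), and of 37 proteasome subunits 28 fell and 2 rose (-0.41). In oxidative phosphorylation the median difference from 10 days was -0.02 at 9 months, -0.11 at 14.5 months and -0.07 at 20 months. In 21 of the 80 genes the 4.5-month arrays lay below all other Tg arrays, against 866 of all 26877 probe sets. The ATP synthase subunit Atp5e went from 12.27, 12.10 and 12.27 to 10.81, 10.77 and 10.82, a fall of 1.41 ± 0.08, but was at -0.18 at 9 months and -0.35 at 20 months. Rps19 of the small ribosomal subunit fell by 1.19 ± 0.08 and was at -0.09 and -0.29, whereas Rplp0 of the large subunit fell by 1.13 ± 0.06 and stayed there, at -1.08 at 20 months. The Gapdh ratio of the arrays stands apart at 4.5 months as well, and its part in these falls was not tested.

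**Figure D4:**
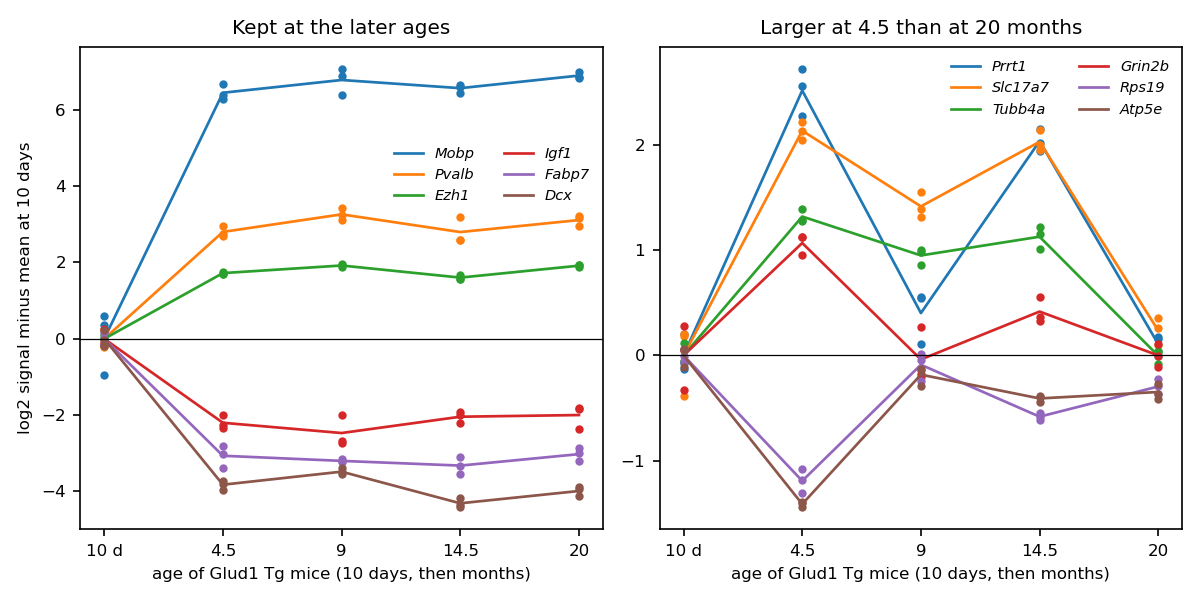
Log2 signal minus the mean at 10 days for 12 genes over the 5 ages of Glud1 Tg mice, with a point for each mouse, a line through the means and the ages evenly spaced, not to scale. At left Mobp, Pvalb and Ezh1 stayed high and Igf1, Fabp7 and Dcx low after 4.5 months, and at right Prrt1, Slc17a7, Tubb4a and Grin2b, which were higher at 4.5 months, and Rps19 and Atp5e, which were lower, lay nearer to the 10-day level at 20 months.

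Markers of interneurons were divided. Of 21 genes 6 rose and 9 fell (median -0.09). Beside Pvalb, the neuropeptide Vip rose by 0.69 ± 0.14, and the layer and migration cue Reln fell by 1.40 ± 0.12, from 11.93, 12.10 and 12.16 to 10.66, 10.72 and 10.61. Dlx1, a factor of migrating interneurons, fell by 1.46 ± 0.20. Sst fell by 0.53 ± 0.14 in Tg mice and was at 0.02 in wt mice, a difference that was not called (limma, adjusted p = 0.541). Npy, at -0.09 ± 0.14, and Cck, at 0.05 ± 0.09, did not pass.

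Dentate granule cell genes rose in 10 of 17 cases and none fell (median 0.60). The synaptic organizer C1ql2 was at 7.78, 8.02 and 7.99 at 10 days and 10.50, 10.52 and 10.62 at 4.5 months, a rise of 2.62 ± 0.21 (adjusted p = 7.88e-11). Dsp rose by 1.90 ± 0.30, Lct by 1.62 ± 0.22 and C1ql3 by 1.34 ± 0.12, and all 3 were at least as high over 10 days at 20 months. Calb1, the calcium buffer of mature granule cells, rose by 0.42 ± 0.10, with other probe sets up to 2.58. Prox1, which all granule cells express from birth, was at -0.03 ± 0.22 and did not pass. In the pyramidal cell fields 4 of 19 genes rose and 2 fell (median -0.06). Rgs14 of field CA2 rose by 1.42 ± 0.09, Wfs1 of CA1 by 0.91 ± 0.11 and Amigo2 by 0.75 ± 0.21.

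Choroid plexus, the tissue that secretes cerebrospinal fluid beside the hippocampus, gave very different signals in mice of the same group. The summed signal of 6 of its markers was 1945, 1437 and 34225 in the Tg mice at 10 days and 6822, 44396 and 37426 at 4.5 months. It was between 29045 and 41893 in the 4 wt mice at 10 days, and 3800, 747 and 38633 in the 3 at 4.5 months. In Tg mice 1 of 16 choroid plexus genes rose and none fell (median 1.98), while the median in wt mice was -1.88. Ttr, the carrier of thyroid hormone, was at 10.66, 10.02 and 15.02 and 12.62, 15.11 and 15.11, a change of 2.38 ± 1.23 with an adjusted p of 0.118, and the wt change was -3.35. The groups overlapped, since the third mouse at 10 days lay above the first at 4.5 months. Kl rose by 2.38 ± 0.94 (adjusted p = 0.0405). Their differences between the genotypes did not pass (limma, adjusted p = 0.49 for Ttr).

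**Figure D5:**
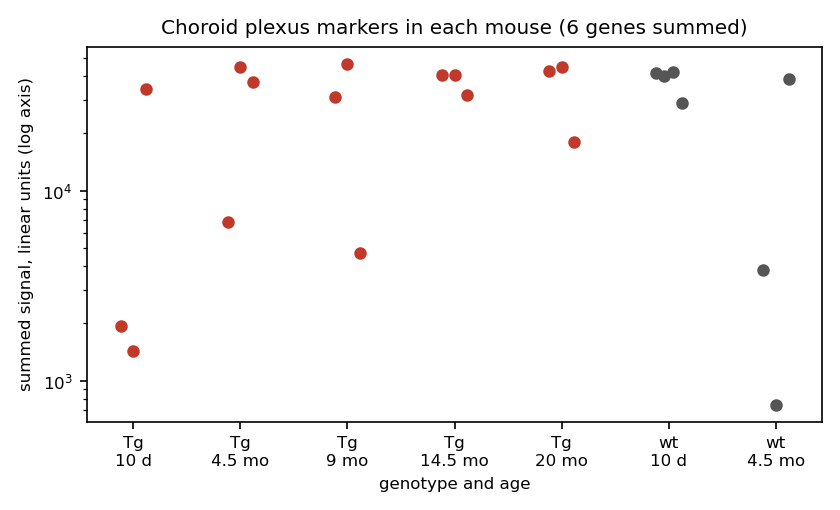
Summed linear signal of 6 choroid plexus markers (Ttr, Folr1, Kl, Otx2, Kcnj13 and Kcne2) in each mouse on a log axis, 1 point for each mouse, for Tg mice at the 5 ages (red, 3 at each) and wt mice at 10 days (grey, 4) and 4.5 months (grey, 3). Low and high samples occur within the same group, among them 2 low samples of 3 in Tg mice at 10 days and 2 of 3 in wt mice at 4.5 months.

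Of 14 genes of thalamus, striatum and cortex 2 rose and 2 fell. Ppp1r1b, a phosphatase regulator of the striatum that granule cells express too, rose by 2.07 ± 0.32, and Plekhg1 fell by 1.24 ± 0.15. Tcf7l2 of the thalamus, at 0.53 ± 0.33, and Drd2 of the striatum, at -0.14 ± 0.56, did not pass. Of the 3 erythroid genes measured Fech, which makes heme, rose by 0.36 ± 0.09, Bpgm, a glycolytic enzyme of red cells, fell by 0.32 ± 0.09, and Alas2, of heme synthesis in red cells, was at -0.46 ± 0.49 and did not pass. All 9 markers of hippocampal granule and pyramidal cells were above the median of the arrays at both ages, as were 3 of 4 thalamic markers at 10 days and all 4 at 4.5 months, and 2 of 3 striatal markers at both ages. These levels do not tell the hippocampus from its neighbours.

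The 10 genes with the largest rises, among those that passed, did not overlap and were above the median in the higher group, were Mog, Mobp, Mal, Ermn, Hapln4, Serpinb1a, Etnppl, A330023F24Rik, Mag and Gm19439. The order and the folds rest in part on 10-day signals below the median of the arrays, and with 50 added to each signal Mog was at 3.51 and Mobp at 5.85. Serpinb1a, a protease inhibitor, rose by 3.96 ± 0.71, from 4.73, 2.33 and 4.14, or by 1.97 with 50 added to each signal. The 10 largest falls were those of Aplnr, Igfbpl1, Mkrn3, Cxadr, Cd24a, Cdca8, Map4k1, Ddias, Mki67 and Sla, many from 4.5-month signals below that median, and their changes ran from -4.42 to -1.62 once 50 was added to each signal. Mkrn3, an imprinted gene that restrains puberty, was at 10.001, 10.29 and 9.83 at 10 days and 5.45, 4.98 and 5.20 at 4.5 months, a fall of 4.83 ± 0.79 (adjusted p = 7.46e-06). Cxadr, a junction protein of immature neurons, went from 12.31, 12.39 and 12.29 to 7.83, 7.66 and 7.67 and fell by 4.61 ± 0.17. Each of these 20 genes kept its 10-day arrays apart from all 12 later Tg arrays, as did 4085 of 12844 genes (31.8%). Lying apart from the 4.5-month arrays was a condition of their choice, and the older groups were compared with the same 10-day arrays.

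Of the genes whose 4.5-month arrays lay apart from all other Tg arrays the largest changes were those of Cabp7, S100a9, Cep250, Pianp and Prrt1. The calcium sensor Cabp7 went from 10.46, 10.19 and 9.89 to 13.06, 13.05 and 13.20 and rose by 2.92 ± 0.15, and at 20 months it was still 2.38 above 10 days. Pianp rose by 2.58 ± 0.13 and was at 0.68 at 20 months. S100a9, a protein of blood granulocytes, fell by 2.77 ± 1.12 (adjusted p = 0.041), from scattered values of 2.97, 5.75 and 7.01 at 10 days. Its call, like those of Kl, Kcnj9, Acan, Ccnd1, Dnmt1, Gabra3, Col1a1, Ncan, Dlk1, Amigo2, Ube2c, Cdk5r1, Grin2d, Sik1 and Nr4a3, was lost when a single mouse was left out.

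No gene passed the test of the difference between Tg and wt maturation. With 1 probe set for each gene the smallest p were those of Gm10419, Thrsp, Cdk5r1, Kiz and Cntfr, while other probe sets of Ptprd and Med14 (adjusted p = 0.0824), Ppm1k, Ttll7 and Lrrtm3 also had a smaller p than Kiz. Thrsp, a regulator of lipid synthesis that responds to thyroid hormone, rose by 1.11 ± 0.11 in Tg mice and by 0.30 in wt mice, a difference of 0.81 (adjusted p = 0.0824). Gm10419 rose by 0.91 ± 0.12 against 1.78 in wt mice (adjusted p of the difference = 0.0824). Cdk5r1, the activator of the neuronal kinase Cdk5, was at 12.18, 12.21 and 12.26 at 10 days and 11.94, 12.08 and 12.001 at 4.5 months in Tg mice, a change of -0.21 ± 0.07, and changed by 0.28 in wt mice (adjusted p of the difference = 0.107). Among all probe sets 7 were called in opposite directions in the 2 genotypes, those of Mef2c, Iqsec1, Cdk5r1, Ildr2, Tox3, Ptprd and Lrrc8c, which are named because there were few.

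In 322 of 5145 genes (6.26%) with at least 2 probe sets, those with the suffixes _s_at and _x_at left out, a probe set rose and another fell, by at least 2-fold each way in 11. Such probe sets often lie on different parts of a transcript. In Nkain1 the changes were 1.95 and -1.28, in Ttll11 1.21 and -1.83, in Arsb 1.38 and -1.39, in Ssr1 1.42 and -1.15 and in Nrp2, the semaphorin receptor, 1.96 and -1.10. For these genes, and for Camk4, Slc1a2, Ptbp2 and Flt1 above, the direction holds for the probe set shown.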

How the data were processed

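Total hippocampal RNA was labelled with biotin and hybridized to whole-genome Affymetrix mouse arrays, 31 in all. The deposited values are linear MAS5 signal intensities, 1 for each of 45101 probe sets, scaled by the authors to a trimmed mean near 500 on each array. The settings of MAS5 and the detection calls are not given in the sources used here, and the study's methods describe another summary method (RMA). Groups were taken from the labels.

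The 64 control probe sets were left out. The log2 of the signals was quantile normalized over the 31 arrays, and the test covered 26877 probe sets, those that exceeded the array median in 3 or more arrays. Means of 10 groups were fitted with limma 3.58.1 in R 4.3.3 (empirical Bayes with a variance trend, robust), which pools the spread over all groups, and p values were adjusted by Benjamini and Hochberg with a threshold of 0.05. The labels number the arrays of a group but do not state that each is a separate animal. The wt group at 10 days has 1 array more than the animals given in the methods, so the spread within it may be technical in part. The number of arrays limits the precision. Of 45037 probe sets, 34945 list 1 gene, 932 several and 9160 none in the platform annotation, and symbols of 34741 were updated through gene identifiers. Only probe sets with 1 gene were named. Gene lists, 35 in all with 891 of 987 genes tested, were described by counts and medians. The lists, their members and the comparison itself were chosen with earlier results of these data known.

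Genes were named by a fixed rule, which takes Glud1, a set of well-known genes of each list whatever their values, the 4 of each list with the smallest p, the 10 largest rises and 10 largest falls, and the 5 foremost genes for the genotype difference, for arrays apart at 4.5 months and for probe sets in both directions. Gad2, Grin2d, Aif1, Ogn, the 4 activity-regulated genes that fell and the genes shown with their promoters were named outside this rule after their values were seen, as were other probe sets with a small p for the genotype difference and the genes called in opposite directions in the 2 genotypes. The script was tested on simulated data. Alternatives were the scaling, the filter, 50 added to each signal, the variance model, the arrays in the fit, each replicate left out in turn, the replicate number as a block, the later ages in place of 4.5 months, the median over all probe sets of a gene for the lists, and the study's thresholds.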

Additional observations from a re-analysis of the deposited data

Results flagged for a closer look

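Cdk5r1 and Ptprd moved in opposite directions in the 2 genotypes, with the 4.5-month arrays apart from the 10-day arrays in both. The Tg minus wt difference was -0.49 for Cdk5r1 (limma, adjusted p = 0.107) and -1.68 for a probe set of Ptprd (adjusted p = 0.0824), and neither passed. Over all probe sets the arrays of both genotypes were apart in the same direction in 11360 cases and in opposite directions in 19.

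The summed choroid plexus signal of the fourth wt mouse at 10 days, 29045, lay below those of the other 3, at 40275 to 41893. Its gap to the nearest was 0.87 of the range of the group. For normally distributed values chance alone gives such a gap in about 1 in 20 groups, and several sums and genes were screened. Groups of 3 arrays were not screened, among them the Tg mice at 10 days, whose sums of 1945, 1437 and 34225 lay farther apart.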

How the results depend on the processing

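The counts of probe sets that rose and fell stayed within 1.5 times those reported under every alternative run. Changes of at least 2-fold, 3789 in all, numbered 2505 with 50 added to each signal and 2256 among probe sets with a mean above the 60th percentile. Leaving out each mouse in turn gave 5775 to 6626 rises, 5735 to 6429 falls and 3601 to 3893 changes of at least 2-fold, and, for arrays apart, which fewer arrays make more frequent, 8280 to 8541 at 10 days and 2382 to 2711 at 4.5 months. At the study's thresholds 4647 rose and 4443 fell.

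The count of 0 for the difference between genotypes rested on single mice, running from 0 to 10 when each was left out. It was 10 without 10-day Tg replicate 2, 5 without 4.5-month wt replicate 1, and 2 without each of 10-day Tg replicates 1 and 3, 4.5-month Tg replicate 1 and 10-day wt replicates 1 and 4. The cause was not tested. With the replicate number as a block it was 1, a probe set of Ppm1k (difference -0.97), beside 6553 rises and 6354 falls. Deviations of mice with the same number correlated at 0.0075, -0.027 and 0.0046, so the numbers do not pair the mice.

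With the mean of 9, 14.5 and 20 months in place of 4.5 months, the changes of Nova2 (-0.15), Btg2 (0.14), Grin2d (-0.44) and S100a9 (0.54) had the opposite sign. Among the 219 genes checked no other changed sign while called under any alternative run, and nothing is stated here for Aif1 and Ogn. Single mice decided some calls named above. Among Tg mice at 10 days, Acan, Dnmt1 and Kcnj9 lost theirs without replicate 1 or without replicate 2, Ccnd1 without replicate 1, Col1a1 and S100a9 without replicate 2, Cdk5r1 and Ncan without replicate 3, and Kl and Gabra3 without any 1 of them. Among Tg mice at 4.5 months, Acan and Kcnj9 lost theirs without replicate 1 or 2, Dnmt1 without replicate 1 or 3, Gabra3 without replicate 1 or 2, Kl without replicate 2 or 3, S100a9 without any 1 of them, Cdk5r1 without replicate 1, Dlk1 without replicate 2, and Amigo2, Ccnd1 and Ube2c without replicate 3. Ttr passed without 10-day Tg replicate 3, the mouse with the choroid plexus signal. Sik1 did not pass without 10-day Tg replicate 2 or 3 or 4.5-month Tg replicate 3, nor Nr4a3 without 10-day Tg replicate 1 or 4.5-month Tg replicate 2. Gabra3 also lost its call without any 1 wt mouse at 10 days and under the replicate block. Other settings also ended calls. With the 13 arrays of both ages alone in the fit Ccnd1, Dnmt1, Grin2c, Kcnj9, Ncan and S100a9 did not pass, and with the 6 Tg arrays alone Acan, Ccnd1, Kcnj9, Kl, Ncan, S100a9 and Sik1. Without quantile normalization Acan, Dnmt1, Glul, S100a9 and Sik1 lost their calls and Slc1a3 and Tcf7l2 passed. With no filter Acan, Gabra3, Grin2d, Kcnj9 and Kl did not pass, nor did Kl with 50 added to each signal, Gabra3 without the variance trend, or Grin2d under the replicate block or without any 1 Tg mouse other than 10-day replicate 3. Nefl passed with 50 added and in the stricter filter. With the later ages in place of 4.5 months Cntfr, Fgfr1, Flt1, Grin2b, Nrp2, Ptbp2, Sik1 and Ssr1 lost their calls, and Otx2, Prox1, Scn3a, Slc1a3 and Ttr passed.

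With the median over all probe sets of a gene, 12 of 35 list medians moved by at least 0.1 and none changed sign. Beside those given above, that of oligodendrocyte precursors was then -0.28, of collagens -0.90, of imprinted genes -0.15 and of cytoskeletal genes -0.27. Above the 60th percentile the cell cycle median was -0.71 and that of collagens -0.32. Without quantile normalization it was 0.58 for potassium channels, 0.02 for glycolysis and the citric acid cycle, -0.19 for endothelium and -0.37 for oxidative phosphorylation. Without single mice it ran from 0.75 to 3.21 for choroid plexus. The medians of glutamate and GABA enzymes, RNA-binding regulators, interneurons and pyramidal fields, all between -0.1 and 0.1, changed sign under 1 or more alternatives. Some larger medians did so too. With the later ages that of AMPA receptor genes went from 0.60 to -0.05. That of cation-chloride cotransporters, 0.19, was -0.04 with the later ages and -0.03 without 10-day Tg replicate 3. That of thalamus, striatum and cortex genes, 0.14, was -0.08 with the later ages and -0.0012 above the 60th percentile. That of erythroid genes, -0.32, was 0.02 above that percentile. Signals below the median of the arrays limit the folds of Mog, Mki67 and Serpinb1a.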
